A study of Mus musculus with 15 samples.

Results

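The nuclei described here were excitatory nuclei from punches of the dorsal hippocampal formation (dHF). They carried transcripts of both Fn1 and Rxfp1, a pair of genes used to mark the subiculum. A nucleus was taken when it had at least 1000 genes detected, at least 1 UMI (a counted RNA molecule) of the excitatory transporter gene Slc17a7, at least 2 UMIs of Fn1, at least 2 of Rxfp1 and at most 1 of Gad1 and Gad2 together. In all, 331 of 134019 barcodes met this rule, or 331 of the 48254 excitatory nuclei, which are those that met the rule without its Fn1 and Rxfp1 limits. They are called Fn1+ Rxfp1+ nuclei, because the data bore the subiculum label out only in part, as described below.

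Single-nucleus RNA-seq was done on dHF punches of 15 adult female wild-type C57BL6/J mice, each a library of its own. The study asked whether reproductive experience (RE), and stress after birth, leave lasting marks on the maternal hippocampus. NP mice (n = 6) were virgin, nulliparous and age-matched, control RE mice (n = 4) had gone through pregnancy, birth, lactation and care of pups until weaning, and stress RE mice (n = 5) had the same experience plus scarce nesting material and daily separation from the pups in the later part of lactation. Tissue was taken weeks after weaning, and the punches also took in some cortex, thalamus and ventral hippocampus.

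The subiculum is the main output field of the hippocampus. Its pyramidal neurons receive input from CA1, project to cortex, thalamus, hypothalamus and nucleus accumbens, and many of them fire in bursts. Fn1 encodes fibronectin, a secreted matrix protein, Rxfp1 the receptor for the hormone relaxin, Nts the peptide neurotensin, Gpr101 an orphan G protein-coupled receptor, and Ntng2 the axonal adhesion protein netrin-G2. In the GRCm38 build (GENCODE annotation) Fn1 lies on chromosome 1 from 71585520 to 71653200, Rxfp1 on chromosome 3 from 79641611 to 79737880, Nts on chromosome 10 from 102481756 to 102490486, Gpr101 on chromosome X from 57496668 to 57503757, and Ntng2 on chromosome 2 from 29194541 to 29253005, all protein-coding genes on the minus strand.

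The Fn1+ Rxfp1+ nuclei were spread unevenly over the mice. NP mice 27, 31, 35, 37, 63 and 73 gave 41, 16, 8, 21, 18 and 12 of them, control RE mice 66, 72, 87 and 88 gave 16, 17, 30 and 18, and stress RE mice 43, 70, 75, 77 and 90 gave 0, 64, 1, 33 and 36. Levels by mouse are therefore given for the 12 mice with at least 10 such nuclei (5 NP, 4 control RE and 3 stress RE), which leaves out NP mouse 35 and stress RE mice 43 and 75. These nuclei were deep, with a median of 14956 to 31526 UMIs per mouse against 7092 to 14096 for all excitatory nuclei, and a rule that asks for UMIs of named genes favours deep nuclei. Scrublet, which scores likely doublets, marked 24 of the 331, of which 13 were among the 17 of control RE mouse 72. The barcodes of 15 of the nuclei also occurred in another library, none of them as an Fn1+ Rxfp1+ nucleus there, and a pair of libraries shared 6 to 47 barcodes. In summed expression, NP mouse 31 lay at the end of both leading principal components, at −33.2 on the first (23.0% of the variance) and 27.9 on the second (13.8%).

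The levels that chose the nuclei are given as a description. Fn1 stood at 275 ± 53.3 UMIs per 1000000 UMIs (CPM) (SD, n = 12 mice), from 213 in control RE mouse 66 to 389 in NP mouse 31, against 0.825 CPM in CA1 nuclei of the same mice. CA1 nuclei here are the 2761 excitatory nuclei outside the rule with at least 2 UMIs of Mpped1 and 1 of Fibcd1. Rxfp1 stood at 381 ± 53.5 CPM (n = 12), from 232 in NP mouse 73 to 426 in control RE mouse 66, and at 1.78 CPM in CA1 nuclei. By group, Fn1 averaged 298 ± 71.2 CPM in NP mice, 258 ± 46.4 CPM in control RE mice and 259 ± 5.52 CPM in stress RE mice, and Rxfp1 averaged 351 ± 71.9, 398 ± 31.3 and 409 ± 3.15 CPM. Exactly 2 UMIs of either gene put 73 of the nuclei at the limit, and 50 excitatory nuclei missed it by a single UMI of 1 of the genes. Nts was counted at 24.1 CPM over all members, at 20.1 CPM in those at the limit and at 12.3 CPM in those just outside, and Prox1, a dentate granule gene, at 7.41, 9.26 and 41.5 CPM.

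Of the 3 subiculum markers the rule did not use, Nts and Gpr101 were above CA1 nuclei in 12 of 12 mice and Ntng2 was not. In NP mice 27, 31, 37, 63 and 73, Nts was counted at 36.5, 10.2, 36.6, 20.5 and 17.1 CPM. In control RE mice 66, 72, 87 and 88 it was at 25.3, 28.5, 8.67 and 41.4 CPM, and in stress RE mice 70, 77 and 90 at 29.3, 23.6 and 10.7 CPM. The 3 groups overlapped throughout, and the lowest of the 12 values still stood above the highest CA1 value of 1.33 CPM. Gpr101 was at 28.7 ± 10.7 CPM (n = 12) against 0.822 CPM in CA1 and 0.349 CPM in all other excitatory nuclei. It ranged from 10.4 CPM in control RE mouse 88 to 41.2 CPM in control RE mouse 72. All other excitatory nuclei, here and below, are those outside the rule, with the CA1 nuclei among them. Ntng2 was at 29.1 ± 5.76 CPM (n = 12) and lay below CA1 nuclei (39.4 CPM) in 10 of 12 mice and below the other excitatory nuclei (78.1 CPM) on average. Its share of nuclei with a UMI, 39.9%, was no higher than that of CA1 nuclei, at 40.7%. Slc17a6, the second vesicular glutamate transporter, was at 93.3 ± 20.3 CPM (n = 12) against 9.65 CPM in CA1 nuclei and was higher in 12 of 12 mice.

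Among the marker lists of other cell types, the cortical list was the one that stood out. Tshz2, a zinc-finger transcription factor on chromosome 2 from 169633013 to 170071816, was at 1895 ± 482 CPM (n = 12) against 16.1 CPM in CA1 nuclei, and was detected in 100% of the 331 nuclei. Fezf2, a transcription factor of deep-layer cortical projection neurons, was at 51.1 ± 23.0 CPM against 5.69 CPM. The other 4 genes of the cortical list were low, with Rorb at 12.4, Foxp2 at 11.1, Cux2 at 5.04 and Rspo1 at 0.105 CPM, all below the mean of the other excitatory nuclei. CA1 markers were divided. Of the 3 that did not choose the CA1 nuclei, 2 were lower by the fold rule set out below and 0 higher. Wfs1 was at 2.11 CPM, 28.1-fold lower. Among the genes that chose the CA1 nuclei, Mpped1 was at 343 CPM against 247 CPM and higher in 12 of 12 mice. Fibcd1 was at 4.66 CPM. Summed over the 5 genes of the list, the level by mouse was 538 to 788 CPM against 802 to 1168 CPM in CA1 nuclei. Which field of the hippocampal formation or cortex these nuclei came from was not tested.

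Markers of CA2, CA3, dentate, mossy, thalamic and Cajal-Retzius neurons gave 1 gene higher than in CA1 by the fold rule set out below, Cdh24 of the CA3 list at 50.6 CPM against 10.1. From the striatal projection list Rarb, the retinoic acid receptor beta, was at 75.8 CPM against 2.35 CPM, while Drd1 was at 0.0937 CPM and Meis2 at 5.33 CPM. Summed over 7 genes, GABAergic markers were at 17.5 to 304 CPM by mouse and at 83.5 to 288 CPM in CA1 nuclei, nearly all of it Adarb2, while Slc32a1 and Lhx6 were at 0.536 and 0.213 CPM. Summed astrocyte markers ranged from 12.7 to 391 CPM against 34.8 to 161 CPM in CA1 nuclei, oligodendrocyte markers from 98.8 to 335 against 99.2 to 268 CPM, and OPC markers from 0 to 53.8 against 8.35 to 27.5 CPM. Microglial markers ranged from 26.5 to 106 against 24.9 to 96.6 CPM, with Csf1r at 1.13 and C1qa at 0.667 CPM, and endothelial, pericyte or leptomeningeal, and choroid or ependymal markers reached at most 6.83, 22.0 and 61.4 CPM.

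**Figure D1:**
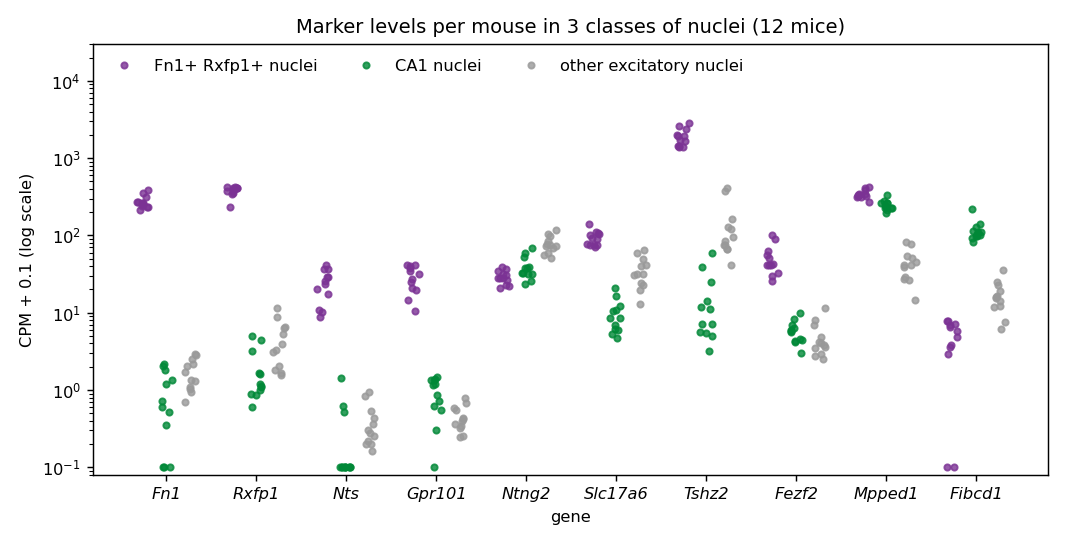
Levels of 10 genes (x axis) in CPM plus 0.1 on a log scale (y axis), 1 point per mouse for the 12 mice with at least 10 Fn1+ Rxfp1+ nuclei, in those nuclei (purple), CA1 nuclei (green) and all other excitatory nuclei (grey). Fn1, Rxfp1, Nts, Gpr101, Slc17a6, Tshz2 and Fezf2 lie higher in the Fn1+ Rxfp1+ nuclei than in CA1 nuclei, Ntng2 does not, and Fibcd1 lies lower. Fn1, Rxfp1, Mpped1 and Fibcd1 were used to choose the classes, and the other excitatory nuclei include the CA1 nuclei.

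Against CA1 nuclei of the same 12 mice, a gene was called higher or lower when its mean CPM over the mice differed at least 2-fold. In addition, every mouse had to differ in that direction, by any amount. The comparison held 11244 genes at 5 CPM or more in either class. By this description, which is no test because the nuclei were chosen on expression, 632 genes (5.62%) were higher and 613 (5.45%) lower in the Fn1+ Rxfp1+ nuclei. The genes that chose the classes, Fn1 and Rxfp1 among them, were left out of the ranking by ratio. The 10 other genes of highest ratio to CA1 with at least 50 CPM were Tshz2 (118-fold), Elfn1 (72.4-fold), Ptprt (50.0-fold), Syt2 (47.3-fold), Coro6 (43.9-fold), Hs3st2 (42.97-fold), Whrn (40.3-fold), Mirt1 (39.3-fold), Grik1 (32.8-fold) and Rarb (32.2-fold). Elfn1 is a postsynaptic adhesion protein that recruits presynaptic metabotropic glutamate receptors, Ptprt a receptor tyrosine phosphatase, Syt2 a calcium sensor of vesicle release, Hs3st2 an enzyme that sulfates heparan chains, and Grik1 a kainate receptor subunit. Elfn1 was at 224 ± 34.7 CPM (n = 12) and Ptprt at 1652 ± 221 CPM (n = 12).

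Against all other excitatory nuclei the order changed. The genes that chose the classes were again left out. Mirt1 led the others at 40.8-fold, followed by Elfn1 at 34.4-fold, Tmem44 at 21.9-fold, Trmt9b at 19.7-fold, Ptprt at 19.6-fold, Adam18 at 18.0-fold, Syt2 at 16.9-fold, Etv1 at 14.6-fold, Ldb2 at 14.5-fold and Tshz2 at 13.3-fold. Each of these was higher in 12 of 12 mice in both comparisons. Etv1, an ETS transcription factor, was at 684 ± 132 CPM and Ldb2, a cofactor of LIM-domain transcription factors, at 1131 ± 103 CPM (n = 12 each).

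Genes chosen after their values were seen show the other side. Sorcs3, a sorting receptor of the sortilin family, was at 17.8 CPM against 843 CPM in CA1 nuclei, Sphkap at 46.3 against 761 CPM and Kcnk2, a two-pore potassium channel, at 3.47 against 67.8 CPM. All 3 were lower in 12 of 12 mice.

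The share of Fn1+ Rxfp1+ nuclei among excitatory nuclei averaged 0.798 ± 0.643% over NP mice (SD, n = 6), 0.521 ± 0.248% over control RE mice (n = 4) and 1.01 ± 1.21% over stress RE mice (n = 5). It ran from 0.257% to 2.07% in NP mice and from 0.380% to 0.893% in control RE mice. Without the nuclei Scrublet marked, control RE mouse 72 was at 0.109% in place of 0.407%. Stress RE mice held both extremes, with 0 of 3513 excitatory nuclei in mouse 43 (a count of 0 allows up to 0.0854%), 0.0287% in mouse 75 (95% Wilson interval 0.00506 to 0.162%), 0.890% in mouse 90, 1.15% in mouse 77 and 2.97% in mouse 70 (2.34 to 3.78%). These intervals cover counting error only. The groups overlapped in every comparison. By two-sided exact permutation tests over mice, the difference of control RE from NP was −0.277 points (exact p = 0.567), that of stress RE from control RE 0.487 points (exact p = 0.619) and that of stress RE from NP 0.210 points (exact p = 0.697), with an adjusted p of 0.697 for all 3. The splits of these mice allow a smallest p of 0.00476, 0.00794 and 0.00217.

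**Figure D2:**
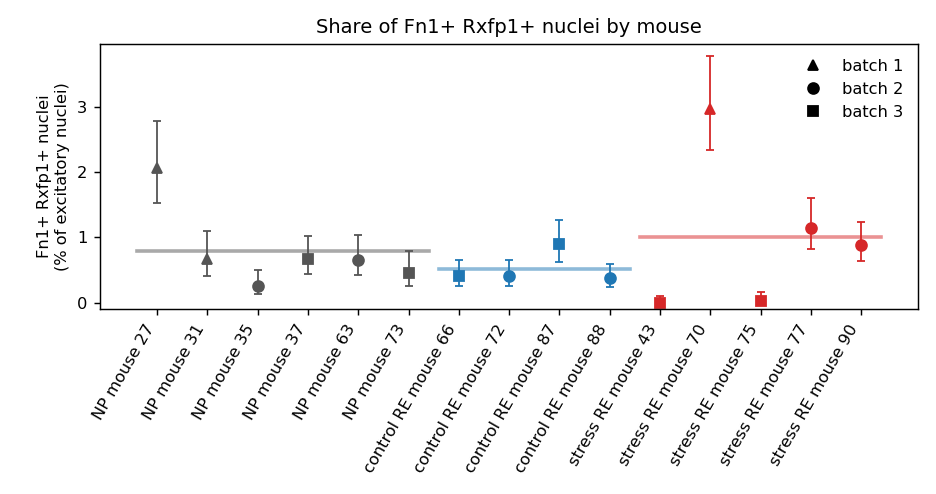
Share of Fn1+ Rxfp1+ nuclei among excitatory nuclei in percent (y axis) for each of the 15 mice (x axis), with the 95% Wilson interval as bars, the group mean as a line and the batch as the symbol. The highest values, 2.97% and 2.07%, are from batch 1, and the values at or near 0 are stress RE mice of batch 3.

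The share is also given by the batch in the labels, with no test of the batch. Batch 1 (2 NP mice and 1 stress RE mouse, no control RE mouse) ranged from 0.675% to 2.97%, batch 2 (2 mice per group) from 0.257% to 1.15%, and batch 3 (2 mice per group) from 0 to 0.893%. These ranges overlapped, and the values of batch 1 above both other ranges were those of NP mouse 27 and stress RE mouse 70. Within batch 1, stress RE minus NP was 1.60 points (1 mouse against 2). Within batch 2, stress RE minus NP was 0.561 points and stress RE minus control RE 0.625 points, while within batch 3 they were −0.551 and −0.634 points. Control RE minus NP was −0.0639 points within batch 2 and 0.0823 points within batch 3, so no comparison kept its direction across batches 2 and 3. Without stress RE mouse 70, stress RE minus NP became −0.282 points and stress RE minus control RE −0.00431 points. The placing of the punch along the hippocampus was not tested.

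Expression was compared on UMI counts summed over the Fn1+ Rxfp1+ nuclei of each mouse (289792 to 1432724 UMIs in the 12 mice), with edgeR's quasi-likelihood test and Benjamini-Hochberg adjustment over 6972 genes. In bulk sums of this kind, a change in the makeup of the nuclei and a change within them cannot be told apart. No gene passed an adjusted p of 0.05 in any of the 3 comparisons (0 of 6972, 0%). At an unadjusted p under 0.05, 316 genes (4.53%) differed between control RE and NP, 204 (2.93%) between stress RE and control RE and 249 (3.57%) between stress RE and NP. DESeq2 also called 0 genes in each, with 317, 203 and 264 at an unadjusted p under 0.05. On simulated counts with these library sizes, edgeR's test found 94.7% of genes changed 4-fold and 54.2% of genes changed 2-fold between control RE and NP, over 6975 genes. It also called 4 unchanged genes there, and 1 gene in a simulation with no gene changed. With the changes placed in stress RE mice, it called 16 unchanged genes in each comparison with that group. CA1 nuclei of the same mice gave 0 calls as well among 12921 genes, with 541, 233 and 442 at an unadjusted p under 0.05.

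The genes of lowest unadjusted p are given as values, since none passed the adjustment (adjusted p = 0.947 for each in control RE minus NP by edgeR). Because they were picked by p, a lack of overlap between groups follows in part from the choice. The share of all tested genes without overlap was not counted, so no lack of overlap is read as a result. Levels are in CPM scaled by TMM factors. Tsga10, a gene first known from testis, was at 31.9, 18.3, 53.6, 55.4 and 33.7 CPM in NP mice 27, 31, 37, 63 and 73, and at 76.7, 82.1, 92.4 and 66.9 CPM in control RE mice 66, 72, 87 and 88. These groups did not overlap, and the log2 fold change was 1.04 (SE 0.28). Stress RE mice 70, 77 and 90, at 37.7, 77.1 and 56.9 CPM, spanned both. Nxpe4 was at 82.4 to 106 CPM in NP and 107 to 164 CPM in control RE mice (log2 fold change 0.63, SE 0.17). Map2k1, the MAP kinase kinase MEK1, was at 45.0 to 52.7 CPM in NP and 66.5 to 88.7 CPM in control RE mice (log2 fold change 0.62, SE 0.18). The next 3 of higher level in control RE were Hipk2 (0.61), Paip2 (0.54) and Cobll1 (0.93).

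Of the genes lower in control RE than in NP, Pou3f1, a POU-domain transcription factor, was at 100, 168, 86.5, 73.8 and 111 CPM in NP mice 27, 31, 37, 63 and 73 and at 48.6, 69.0, 35.5 and 56.3 CPM in control RE mice 66, 72, 87 and 88. The log2 fold change was −1.07 (SE 0.29), and in CA1 nuclei it was −0.58. Mcc was at 39.8 to 108 CPM in NP and 23.0 to 30.7 CPM in control RE mice (log2 fold change −1.15, SE 0.33), and the same 4 control RE values made it the gene of lowest p for higher levels in stress RE than in control RE mice (41.7 to 70.5 CPM, log2 fold change 1.17, SE 0.34). Syt11 (−0.55) did not overlap either, whereas Tuba4a (−0.91), Vgf (−0.95), a secreted neuropeptide precursor, and Eef1a2 (−1.21), a neuronal elongation factor, overlapped between the groups. These comparisons share the control RE mice, so a gene that was low there enters both.

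In stress RE minus control RE (adjusted p = 1 for each by edgeR), Sash1 had a log2 fold change of 0.56 (SE 0.17) and Nsmaf of −0.80 (SE 0.23). Both were without overlap, which follows in part from the choice by p. With 3 against 4 mice there are only 35 splits, so separation is not rare without an effect of the group. Lin52 (0.66), Tuba4a (0.77), Mllt11 (0.73) and Nfix (0.52), a nuclear factor I transcription factor, were the other genes of higher level. Nfix overlapped between the groups. Cdon (−0.74), Lrrn1 (−0.64), Pip5k1b (−0.62), Mtmr1 (−0.52) and Ap5m1 (−0.82) were the other genes of lower level. In stress RE minus NP (adjusted p = 0.997 for each by edgeR), E2f3, a transcription factor of the cell cycle, was at 51.9, 51.9, 57.1, 58.0 and 41.0 CPM in NP mice 27, 31, 37, 63 and 73 and at 89.3, 72.5 and 102 CPM in stress RE mice 70, 77 and 90. Its log2 fold change was 0.75 (SE 0.18), and control RE mice ranged from 63.3 to 75.6 CPM, above NP and overlapping stress RE mice. Pcsk5, a proprotein convertase, followed at 0.49 (SE 0.15), then Washc2 (0.70), Tmem200a (0.42), Pdpk1 (0.63) and Antxr1 (0.70), of which Washc2 and Antxr1 overlapped between the groups. On the lower side, Otulin (−0.78) and Mob4 (−0.82) did not overlap, while Emc10 (−0.89) and Ahr (−0.99) did.

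Rgs6 and Nwd2 had log2 fold changes of −3.57 (SE 1.02) and −1.92 (SE 0.61) in stress RE minus NP, which rested on 2 NP mice. Rgs6, a regulator of G protein signalling, was at 314 CPM in NP mouse 63 and 84.3 CPM in NP mouse 73, against 16.5, 6.11 and 10.4 CPM in NP mice 27, 31 and 37 and 8.37, 9.20 and 1.26 CPM in stress RE mice 70, 77 and 90. Control RE mice spanned 3.52 to 42.7 CPM. Nwd2 was at 290 and 140 CPM in NP mice 63 and 73 and at 21.4 to 40.1 CPM in the other 3. Rgs6 also led a subcluster, described below, whose leading genes were higher in other excitatory nuclei. NP mice 63 and 73 were the highest for the summed leading genes of that subcluster, at 1458 and 2159 CPM. These genes were picked from the same nuclei and include Rgs6, so a mouse high in Rgs6 ranks high in part through the choice. NP mice 63 and 73 held 6 and 5 nuclei of that subcluster. Stress RE mouse 90 held 11, with a sum of 277 CPM. Values for markers of other cell types, none of which passed the test, are given beside this comparison. Summed thalamic or habenular markers ranged from 22.7 to 157 CPM in NP mice, 12.7 to 90.2 CPM in control RE mice and 9.54 to 12.6 CPM in stress RE mice, and GABAergic markers from 17.5 to 304, 25.4 to 156 and 36.0 to 50.1 CPM. The log2 fold change in stress RE minus NP was −2.58 (SE 0.81) for Tcf7l2, −2.07 (SE 0.98) for Foxp2 and −1.43 (SE 0.58) for Adarb2. Summed microglial markers ranged from 44.4 to 106, 57.2 to 91.9 and 26.5 to 60.7 CPM, and astrocyte markers from 15.7 to 391, 12.7 to 81.5 and 23.7 to 56.2 CPM. Their part in the differences between groups was not tested.

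**Figure D3:**
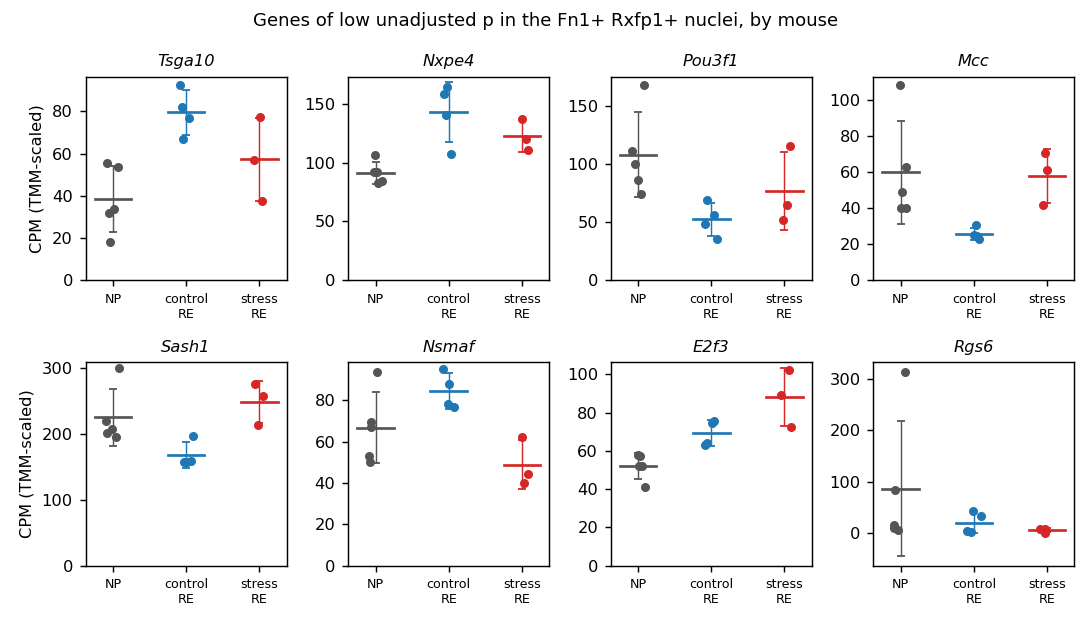
TMM-scaled CPM (y axis) of 8 of the genes of lowest unadjusted p in NP, control RE and stress RE mice (x axis), 1 point per mouse, with group means as lines and SDs as bars (n = 5, 4 and 3). Tsga10, Nxpe4, Pou3f1 and Mcc did not overlap between NP and control RE mice, nor Sash1 and Nsmaf between control RE and stress RE mice. E2f3 did not overlap between NP and stress RE mice, while Rgs6 rests on 2 NP mice. The genes were picked by p, so the lack of overlap follows in part from the choice. No gene passed adjustment.

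Counts of list genes against CA1 nuclei, here and below, stand beside 5.62% higher and 5.45% lower over all compared genes. No list was tested against those shares. For the genes of neurotensin, relaxin and netrin-G signalling (13 genes, 9 in the class comparison), 3 were higher than in CA1 and none lower. The 3 were Nts, Gpr101 and Ntng1, which encodes netrin-G1 and stood at 936 ± 88.8 CPM against 126 CPM. Lrrc4c, the partner of netrin-G1 across the synapse, was at 641 CPM against 915 CPM. Sort1, a sorting receptor that also binds neurotensin, was at 397 CPM against 253 CPM, while the signalling receptor Ntsr1 was at 0.963 CPM, and the ligand gene Rln3 and the receptor gene Rxfp3 had no UMI. None of 7 tested genes was called between groups. The median log2 fold change was 0.0050 in control RE minus NP, −0.030 in stress RE minus control RE and −0.0061 in stress RE minus NP, beside −0.0025, −0.0054 and −0.025 over all genes. Ntng1 (0.22, SE 0.12) and Lrrc4c (−0.31, SE 0.18) had the lowest p in control RE minus NP. For Nts the log2 fold change was −0.05 (SE 0.43) and for Gpr101 −0.09 (SE 0.35).

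The share of nuclei with a UMI of these genes was tested after thinning each nucleus to 4000 UMIs, in the same 12 mice. Nts was then detected in 15.4 ± 1.98% of nuclei of NP mice (n = 5), 7.48 ± 2.44% of nuclei of control RE mice (n = 4) and 5.58 ± 4.64% of nuclei of stress RE mice (n = 3). The exact permutation p was 0.00794 for control RE minus NP and 0.0179 for stress RE minus NP, the smallest that these numbers of mice allow, and the adjusted p over 12 tests was 0.0714 for both. For Slc17a6 the shares were 33.9 ± 3.51% in NP mice, 28.6 ± 6.49% in control RE mice and 20.9 ± 3.88% in stress RE mice, with an exact p of 0.0179 and an adjusted p of 0.0714 in stress RE minus NP. The summed level of Nts was 24.2 ± 11.9, 25.99 ± 13.5 and 21.2 ± 9.52 CPM in the 3 groups, so the mean level was slightly higher in control RE than in NP mice where the share was lower, and the groups overlapped in level. The shares of Nts rested on 32 nuclei with a UMI in all, and no order is read from them. Thinning was a random draw that was not repeated. Without thinning, the Nts shares of the groups overlapped. They were 18.8 to 61.9% in NP mice, 16.7 to 50.0% in control RE mice and 25.0 to 45.5% in stress RE mice. Asking for 2 UMIs reversed both Nts differences, to 1.075 points in control RE minus NP and 0.0330 points in stress RE minus NP. Gpr101 (12.1, 5.53 and 7.69%) and Ntng2 (4.45, 8.87 and 11.7%) had adjusted p-values of 0.272 to 0.571. In CA1 and oligodendrocyte-like nuclei, Nts was found in 0.182% and 0.252% of thinned nuclei. Before thinning it was found in 38.1% of the Fn1+ Rxfp1+ nuclei and in 0.290% of CA1 nuclei, whose median depth was 12000 to 21512 UMIs per mouse, and in 0.230% of the shallower oligodendrocyte-like nuclei.

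Of the vesicular transporter and peptide genes (19 genes, 9 in the comparison), Slc17a6 and Nts were higher than in CA1 and Chgb, Slc30a3 and Cck lower. Cck, the peptide cholecystokinin, was at 20.6 CPM against 88.4 CPM, Slc30a3, the vesicular zinc transporter, at 1.31 against 17.0 CPM, and Scg2, a granin, at 39.7 against 35.0 CPM. None of 6 tested genes was called, and the medians were −0.19, −0.10 and −0.12 in the 3 comparisons, in the order given above. Slc17a6 had a log2 fold change of −0.35 (SE 0.19) in control RE minus NP and −0.42 (SE 0.18) in stress RE minus NP, and Cck of −0.49 (SE 0.45) in control RE minus NP.

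Glutamate receptors (24 genes, 22 in the comparison) held 4 genes higher than in CA1, among them Grm8, Grik1 and Grm4. Another 4 were lower, among them Grin2a, Grm3 and Grik4, beside 5.62% higher and 5.45% lower over all compared genes. Grm8, a presynaptic metabotropic receptor, was at 1012 ± 146 CPM against 31.5 CPM, and Grin2a, an NMDA receptor subunit, at 2609 against 5476 CPM. Grm5 and Gria1 were the most abundant, at 5383 and 4624 CPM. No tested gene of 21 was called, and the medians were 0.11, 0.065 and 0.17. Grin3a (−1.05, SE 0.41) and Grm8 (0.30, SE 0.15) had the lowest p in control RE minus NP. Of the GABA receptors (14 genes, 13 in the comparison), Gabrg3, at 1769 against 583 CPM, and Gabra3, at 85.1 against 25.8 CPM, were higher and Gabra5 lower. None of 12 was called, with medians of 0.15, −0.030 and 0.13. Gabbr1, a subunit of the metabotropic receptor, had a log2 fold change of −0.44 (SE 0.17) and Gabrg3 of 0.29 (SE 0.13) in control RE minus NP.

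Ion channels linked to burst firing (33 genes, 31 in the comparison) showed 3 genes higher than in CA1, among them Kcnt1 and Kcnn1. The 4 lower were Kcnd2, Cacna1e, Kcnt2 and Scn3b, beside 5.62% higher and 5.45% lower over all compared genes. Kcnt1, a sodium-activated potassium channel, was at 135 against 22.4 CPM, whereas its paralog Kcnt2 was at 28.2 against 296 CPM. Kcnd2, an A-type potassium channel, was at 2268 against 5903 CPM. Cacna1g, Cacna1h and Cacna1i, the T-type calcium channels that are tied to bursting, were at 45.8, 76.0 and 80.5 CPM. They were neither higher nor lower than in CA1 by the 2-fold rule. None of 31 was called between groups, with medians of 0.015, 0.0079 and −0.018, and Kcnb2 had a log2 fold change of 0.26 (SE 0.12) in control RE minus NP.

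Of the genes for extracellular matrix and integrins besides Fn1 (39 genes, 24 in the comparison), 6 were lower than in CA1 and 1 higher. Over all compared genes 5.45% were lower and 5.62% higher. Itga8, an integrin subunit whose dimer binds fibronectin, was at 30.2 ± 10.9 CPM against 322 CPM, Tnr (tenascin-R) at 232 against 636 CPM, Col11a1 at 14.6 against 113 CPM and Thsd7b at 21.0 against 220 CPM. Col25a1 and Thsd7a were the other 2 that were lower. Itga3 was higher, at 12.7 against 3.01 CPM, and Itga5, of the classical fibronectin receptor, was at 4.40 CPM against 0.259, under the limit of 5 CPM. Col4a2 was at 109 CPM. None of 16 was called, with medians of −0.13, −0.13 and −0.16. Itga8 (0.73, SE 0.31) and Ncan (−0.37, SE 0.20) had the lowest p in control RE minus NP.

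The regional transcription factors (31 genes, 28 in the comparison) held 7 genes higher and 6 lower than in CA1, beside 5.62% and 5.45% of all compared genes. Tshz2, Tshz3, Sox5, Etv1, Fezf2, Nr4a2 and Satb1 were higher, with Sox5 at 962 ± 177 CPM against 76.5 CPM and Tshz3 at 167 against 8.21 CPM. Zbtb20, a hippocampal pyramidal and granule cell factor, was at 201 against 2749 CPM, and Meis2, Nfia, Neurod6 and Lmo3 were among the others that were lower. None of 23 was called, with medians of 0.051, 0.0059 and 0.10. Pou3f1 and Lmo4 (−0.75, SE 0.24) had the lowest p in control RE minus NP. Of the immediate early genes (13 genes, 10 in the comparison), Fosl2, at 43.9 against 3.63 CPM, and Nr4a1, at 134 against 48.7 CPM, were higher, and Bdnf, Nptx2 and Egr1 lower, with Homer1 at 286 CPM. None of 7 was called, with medians of 0.029, −0.11 and −0.13. Fosl2 (−0.31, SE 0.26) and Npas4 (0.34, SE 0.38) had the lowest p in control RE minus NP.

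Dopamine receptors were at or near 0 in these nuclei. Drd1 and Drd5 had means of 0.0937 and 0.145 CPM, each with a UMI in 0.302% of the 331 nuclei, Drd3 a mean of 0.105 CPM, and Drd2 and Drd4 had no UMI, which allows a UMI in up to 0.906% of nuclei. Of 15 genes of dopamine signalling (8 in the comparison), Adcy5, an adenylyl cyclase, was higher than in CA1, at 74.8 against 35.7 CPM, and Drd5 and Pde1b were lower. Pde10a, at 940 CPM, was the most abundant. None of 5 was called, with medians of −0.12, 0.032 and 0.14, and Gng7 (0.19, SE 0.24) had the lowest p in control RE minus NP. Of the corticosteroid and CRH genes (12 genes, 8 in the comparison), none was higher or lower than in CA1 by the 2-fold rule. Nr3c2, the mineralocorticoid receptor, at 1362 CPM, and Zbtb16, at 551 CPM, were the most abundant. None of 7 was called, with medians of 0.21, −0.073 and 0.063, and Per1 (−0.76, SE 0.40) and Sgk1 (0.38, SE 0.22) had the lowest p in control RE minus NP.

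Of the reproductive hormone receptors (10 genes, 4 in the comparison), 0 were higher and 1 was lower than in CA1 by the 2-fold rule. Pgr, the progesterone receptor, was at 62.2 ± 10.0 CPM against 36.0 CPM, higher in 12 of 12 mice but less than 2-fold. Esr1, Prlr and Oxtr were at 0.257, 1.35 and 0.0582 CPM, against 4.69, 10.3 and 0.315 CPM in CA1 nuclei. None of 3 was called, with medians of 0.15, 0.0074 and 0.16, and Ghr (0.51, SE 0.32) had the lowest p in control RE minus NP. None of the 20 H3K4 methylation enzymes was higher or lower than in CA1 by the 2-fold rule, with Kmt2a at 273 and Kmt2c at 240 CPM. None of 18 was called, with medians of −0.074, −0.0050 and −0.043, and Wdr5 (0.64, SE 0.36) and Kmt2b (−0.46, SE 0.30) had the lowest p. By the same rule the 10 mitochondrially encoded genes were neither higher nor lower, with mt-Co3 at 177 and mt-Co1 at 140 CPM. None was called between groups, with medians of −0.22, 0.21 and 0.089. In control RE minus NP, mt-Co1 (−0.35, SE 0.31) and mt-Nd2 (−0.31, SE 0.30) had the lowest p.

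Whether group effects differed between the Fn1+ Rxfp1+ nuclei and CA1 nuclei of the same mice was tested with edgeR as a class by group term, with the mouse as a block, over 10178 genes. In stress RE minus NP 3 genes passed (0.0295%), Ntng1, Brinp3 and a gene named only by a clone number. For Ntng1 the difference was 1.43 (log2, SE 0.23, edgeR adjusted p = 0.0174). Ntng1 was at 890 ± 64.3 CPM in NP (n = 5) and 956 ± 36.0 CPM in stress RE mice (n = 3) in the Fn1+ Rxfp1+ nuclei, a log2 fold change of 0.19, while in CA1 nuclei it was at 163 ± 42.6 and 67.2 ± 20.4 CPM, a log2 fold change of −1.17. For Brinp3 the difference was 1.11 (SE 0.20, edgeR adjusted p = 0.0323), with 1613 ± 281 and 1957 ± 127 CPM in the Fn1+ Rxfp1+ nuclei against 73.9 ± 28.1 and 41.2 ± 5.34 CPM in CA1 nuclei. The third gene was at 164 and 158 CPM in the Fn1+ Rxfp1+ nuclei and at 2.73 and 0.0469 CPM in CA1 nuclei, where stress RE mice ranged from 0 to 0.141 CPM, so its fitted difference depends on the handling of counts near 0. In each of these genes the level was higher in the Fn1+ Rxfp1+ nuclei, and the larger of the 2 log2 fold changes was that of the CA1 nuclei. No gene passed in control RE minus NP or stress RE minus control RE (452 and 402 genes, or 4.44% and 3.95%, at an unadjusted edgeR p under 0.05, beside 429 or 4.21% in stress RE minus NP). On simulated counts over 6975 genes, this test found 77% of genes changed 4-fold and 26% of genes changed 2-fold in control RE minus NP. It also called 3 unchanged genes there. The simulated CA1 nuclei had the gene levels of the Fn1+ Rxfp1+ nuclei and no effect of the mouse. Genes were changed in the Fn1+ Rxfp1+ nuclei only, so these rates may not hold for the data. The number for stress RE minus NP was 0 without NP mouse 31 or 73 or without stress RE mouse 77 or 90, 1 without stress RE mouse 70 and 5 without NP mouse 27 or 37.

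Leiden clustering without the genes of the rule split the 331 nuclei into 5 subclusters of 99, 62, 83, 78 and 9 nuclei, given as a description. Fn1, whose minimum the rule set, was at 218 to 332 CPM across them. Of the markers the rule did not use, Nts was at 17.7 to 28.7 CPM, Gpr101 at 21.4 to 29.5 CPM and Ntng2 at 10.7 CPM in subcluster 5 to 42.9 CPM in subcluster 4. Subcluster 1 was led by Il1rapl2 (82.9 CPM against 12.9 in the other members), Vwc2l, Grik1 (1257 against 459 CPM) and Hs3st4, and came from 12 mice. Its 10 leading genes summed to 1515 to 4082 CPM in the Fn1+ Rxfp1+ nuclei and to 3834 to 6191 CPM in CA1 nuclei. The sum was lower than in CA1 nuclei in 12 of 12 mice, but this did not hold for each gene. Grik1 was at 686 CPM in all Fn1+ Rxfp1+ nuclei against 20.9 CPM in CA1 nuclei, higher in 12 of 12 mice. Subcluster 2 was led by Rgs6 (116 against 7.86 CPM), Trpm3, Car10 and Fstl4. Some genes of other marker lists were higher there than in the other subclusters. Adarb2 was at 163 against 32.8 to 57.0 CPM, Slc4a4 at 82.0 against 10.9 to 21.8 CPM and Tcf7l2 at 37.8 against 3.52 to 21.4 CPM. Others were not, such as Slc32a1 at 0.59 CPM. Subcluster 2 was also the deepest, with a median of 27742 UMIs against 15122 to 22574 in the others. Its 10 leading genes summed to 3418 to 6223 CPM in the other excitatory nuclei of the 12 mice, above the 92.5 to 2159 CPM of the Fn1+ Rxfp1+ nuclei, and Scrublet marked 9 of its 62 nuclei. Subcluster 5 carried oligodendrocyte genes, with Mag at 123 against 1.52 CPM and Mobp at 134 against 2.49 CPM, and 3 of its 9 nuclei were marked by Scrublet.

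Subclusters 3 and 4 followed the mouse. Subcluster 3 was led by Far1os, Hacd4, Lrtm1 and Ube3a, the last at 906 against 281 CPM, and held 14 of 21 nuclei of NP mouse 37 but 0 of 64 of stress RE mouse 70, 0 of 30 of control RE mouse 87 and 0 of 12 of NP mouse 73. Subcluster 4 was led by Taco1, Kcnh3 and mitochondrially encoded genes such as mt-Co3 (357 against 151 CPM), and 51.3% of its 78 nuclei came from stress RE mouse 70. It held 40 of 64 nuclei of that mouse, 12 of 16 of NP mouse 31 and 8 of 41 of NP mouse 27, the 3 mice of batch 1, and in batch 3 it held 10 of 30 of control RE mouse 87, 3 of 12 of NP mouse 73 and 1 of 16 of control RE mouse 66, with 2 nuclei each in control RE mouse 88 and stress RE mouse 90 of batch 2. The same genes varied in CA1 nuclei of the same mice. The 10 leading genes of subcluster 3 summed to 1771 CPM in the Fn1+ Rxfp1+ nuclei and 1462 CPM in the CA1 nuclei of NP mouse 37, and to 242 and 237 CPM in stress RE mouse 70. Those of subcluster 4 summed to 1564 and 1432 CPM in stress RE mouse 70 and to 410 and 511 CPM in stress RE mouse 90. P2ry12 and P2ry14, also among the leading genes of subcluster 3, lie on the minus strand of chromosome 3 at 59216272 to 59262871 and 59113855 to 59153618, within the interval of Med12l on the plus strand (59005825 to 59318682). Of the microglial list, Cx3cr1 was at 12.1 CPM in subcluster 3 and at 1.41 to 7.08 CPM in the others, with Csf1r at 2.87 and 0 to 0.704 CPM and C1qa at 0.575 and 0 to 0.704 CPM. The part of microglial RNA in subcluster 3 was not tested. The part of library quality in these subclusters was not tested.

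**Figure D4:**
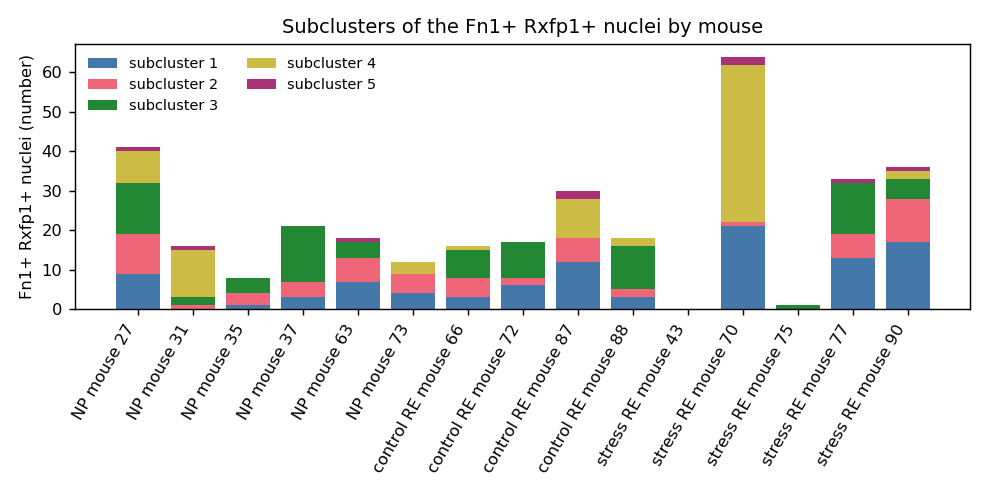
Number of Fn1+ Rxfp1+ nuclei (y axis) in each of 5 subclusters, stacked, for each of the 15 mice (x axis). Subcluster 4 is largest in stress RE mouse 70, with 40 of its 64 nuclei, and subcluster 3 is missing from stress RE mouse 70, control RE mouse 87 and NP mouse 73.

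**Figure D5:**
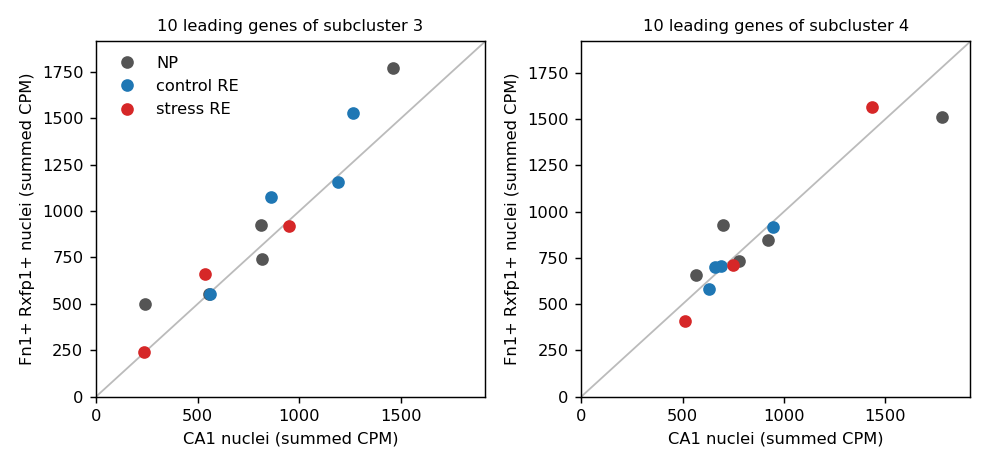
Summed CPM of the 10 leading genes of subcluster 3 (left) and of subcluster 4 (right) in the Fn1+ Rxfp1+ nuclei (y axis) and in the CA1 nuclei (x axis) of the same mouse, 1 point per mouse (12 mice), with the line of equal values. Mice high in the Fn1+ Rxfp1+ nuclei are high in CA1 nuclei too, from 237 to 1462 CPM in CA1 nuclei for the genes of subcluster 3.

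Subclusters 2 and 5 carried genes of other marker lists. Without their nuclei, 0 genes were called in each of the 3 comparisons, and without the 3 mice of batch 1 also 0, by edgeR at an adjusted p of 0.05. Both settings were chosen after the data had been seen.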

How the data were processed

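The authors deposited, per mouse, UMI counts for 32285 genes in the barcodes kept by Cell Ranger (version 7.1.0 in the submitters' processing notes; the file headers name an earlier one), against mm10 (GRCm38). The deposited counts carry no correction for free RNA or doublets, and whether introns were counted is not given in the sources used here, so levels were compared within genes. Members and gene lists were chosen with earlier results of these data known. No Fn1 or Rxfp1 result is tested, because these genes chose the nuclei. Counts were summed per mouse (at least 10 nuclei) and tested with edgeR 4.0.16 (filterByExpr, TMM, quasi-likelihood, all 3 groups in 1 fit, no covariate) in R 4.3.3, with DESeq2 1.42.0 as an alternative, and both were tested on simulated data. Shares were tested over mice with exact permutation tests, two-sided, with Benjamini-Hochberg adjustment. The mice are separate animals. Subclusters came from scanpy 1.11.5 (Leiden) and doublets from its Scrublet, at 0.8% per 1000 barcodes. Named were the genes of the rule and the given markers, per comparison and direction the 6 genes of lowest unadjusted p at 30 CPM or more, per list the 2 of lowest p in control RE minus NP and the 2 most abundant, and the 10 of highest ratio to other classes at 50 CPM or more, leaving out clone-named genes. The ranking by ratio also left out the genes that chose the classes. Where a gene list is described, only genes counted at 5 CPM or more entered the class comparison. Gene positions came from GENCODE on GRCm38, in which all 419 gene IDs looked up were found. No sequence is shown, since no result turned on it. A few members of the gene lists are not reported here by name.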

Additional observations from a re-analysis of the deposited data

Results flagged for a closer look

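Of 71 sets of 4 to 6 mice checked for a mouse apart from its group by Dixon's test, 9 gave such a mouse, where chance gives about 1 in 20. In the share of Fn1+ Rxfp1+ nuclei, NP mouse 27 stood at 2.07% where the other 5 NP mice lay at 0.257 to 0.675%, and control RE mouse 87 stood at 0.893% where the other 3 lay at 0.380 to 0.407%. In the share of thinned nuclei with a UMI, control RE mouse 88 stood apart for Nts, at 11.1% against 5.88 to 6.67%, and for Ntng2, at 16.7% against 5.88 to 6.67%. These shares were 2 of 18 nuclei for Nts and 3 of 18 for Ntng2. For each gene, control RE mice 66, 72 and 87 had 1 of 16, 1 of 17 and 2 of 30. Control RE mouse 72, in which Scrublet marked 13 of 17 nuclei, stood apart for Slc17a6, at 104.6 CPM against 74.6 to 78.5 CPM, and for Eef1a2, at 62.4 against 17.6 to 23.0 CPM. For Sash1, control RE mouse 87 was at 197.2 CPM against 158 CPM in the others. For Washc2, NP mouse 31 was at 61.1 CPM against 28.9 to 33.0 CPM. For Rgs6, NP mouse 63 was at 313.7 CPM against 6.11 to 84.3 CPM.

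In stress RE minus NP, 3 genes passed the class by group test of edgeR between the Fn1+ Rxfp1+ nuclei and CA1 nuclei. The log2 differences were 1.43 for Ntng1, 1.11 for Brinp3 and 4.66 for the clone-named gene 9330185C12Rik. That gene was at 0 to 0.141 CPM in CA1 nuclei of stress RE mice. In neither class alone did the group difference of these genes pass. Leaving out a mouse gave 0 to 5 genes, so the calls depend on single mice.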

How the results depend on the processing

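No paired analysis was possible because the labels give each mouse a number of its own. In the pseudobulk comparisons the count of 0 called genes was unchanged with DESeq2, RLE factors, batch as a term, the stricter and the looser rule, and without Scrublet doublets. The minimum of 10 nuclei per mouse was applied anew, so the mice were not always the same. The stricter rule left out NP mouse 73, with 9 nuclei, and the looser rule took in NP mouse 35, with 10. Without Scrublet doublets, control RE mouse 72 and NP mouse 73 fell below the minimum. Without a filter on low counts, 23, 25 and 42 genes were called in control RE minus NP, stress RE minus control RE and stress RE minus NP, of which 17, 24 and 30 had been tested with the filter. With at least 20 nuclei per mouse, which leaves 1 control RE mouse, assumed to vary like the other groups, 2 genes were called in control RE minus NP, Thsd7a at a log2 fold change of 2.82, against −0.41 in the reported fit, and Robo1 at 2.27, against 0.02, both named after their values were seen. With the same number of nuclei from every mouse, 1 gene, Rarb, was called in stress RE minus NP, and Cdon turned to 0.003 in stress RE minus control RE. Leaving out a mouse gave 0 calls in all 3. Of the class by group counts, all other excitatory nuclei in place of CA1 gave 7, 5 and 38 genes and no filter gave 25, 23 and 45. Leaving out a mouse gave 0 in control RE minus NP, 0 to 1 in stress RE minus control RE and 0 to 5 in stress RE minus NP.

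The difference in share was reversed on the log2 scale in stress RE minus control RE, at −0.7998, and in stress RE minus NP, at −1.22, and without the mice of batch 1 (chosen after seeing the data) in control RE minus NP, at 0.0092 points, and in stress RE minus control RE, at −0.00431 points. Leaving out a mouse gave −0.401 to −0.0235 points in control RE minus NP, −0.00431 to 0.739 in stress RE minus control RE and −0.282 to 0.464 in stress RE minus NP.

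For the shares of nuclei with a UMI, no thinning reversed Gpr101 in control RE minus NP (0.603 points) and stress RE minus control RE (−3.02), Ntng2 in control RE minus NP (−8.83) and Slc17a6 in stress RE minus control RE (6.55). Asking for 2 UMIs reversed Nts in control RE minus NP (1.075) and stress RE minus NP (0.0330) and Slc17a6 in control RE minus NP (2.80). Leaving out a mouse reversed Gpr101 in stress RE minus control RE, which ranged from −0.940 to 4.44 points. Over the leave-outs Nts ranged from −9.17 to −7.43 points in control RE minus NP and from −12.5 to −8.46 in stress RE minus NP, and Slc17a6 from −14.6 to −10.8 in stress RE minus NP. None of these settings brought a share past its threshold, and the cause of each reversal was not tested.

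Each summed profile rested on 12 to 64 nuclei per mouse, and at these library sizes simulated 2-fold changes were found in 52.0 to 59.2% of genes over the 3 comparisons.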
